A study of Homo sapiens with 8 samples.

Results

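Models with at least 1 splice site missing from the annotation form the class NNC (not in the catalogue) of TALON, which matches long reads to known transcripts and builds new models for the rest. The members were all models of the 3 deposited count tables with that class, 121709 of 506946 models (24.01%). Of these, 54981 had a read in the libraries analysed here and 66728 had none. They held 117816 of 1910686 reads (6.17%). The reads came from native RNA of 3 established human cell lines, read molecule by molecule through nanopores with no copy into cDNA. K562, a myelogenous leukaemia line with erythroid features, had 2 libraries, HepG2, a liver cancer line that makes hepatocyte plasma proteins, had 3, and GM12878, a B cell line immortalised with Epstein-Barr virus, had 3. The labels name no treatment, allele or edit for any line. The series was made to set nanopore reads beside PacBio reads with TALON, and the PacBio reads were not analysed here.

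The labels give K562 the cell type of a lymphoblastoid line. Its libraries held 14357 reads of 6 erythroid markers, which had 0 reads in HepG2 and GM12878, and 1 read of 5 B cell markers. The 5 hepatocyte markers had 76537 reads in HepG2 and 4 in GM12878, and the 5 B cell markers had 4359 reads in GM12878 and 198 in HepG2, of which 197 were of CD74. Depth ran from 70374 reads in GM12878 replicate 3 to 461497 in HepG2 replicate 1. The labels do not say whether libraries of a line came from separate cultures, so the spread between them may be technical.

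An intron is removed at a donor site and an acceptor site, and an annotation lists the sites already recorded. A read whose introns all end at listed sites in a new pairing is classed as a new combination (NIC), and a read with at least 1 intron end that is not listed is classed as NNC. A read that only leaves out an annotated exon, with both neighbours joined at their listed sites, is therefore NIC and not NNC. The tables give each model's exon number and length but not its intron ends, so the unannotated sites themselves were not analysed here. Many cell types splice exons of 30 bases or fewer, called microexons where they are shortest. The junctions on either side of such an exon lie at most 30 bases apart in the mature RNA.

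The sequences shown first are annotated internal exons of at most 30 bases, because the genes that contain such an exon had the higher NNC shares, often in models with 1 exon fewer. Each is taken from the transcripts of GENCODE 29 on GRCh38, with the exon in capitals and 10 bases of each neighbouring exon in lower case, read 5′ to 3′ along the spliced RNA. Coordinates are those of the exon in capitals. The first 12 are the genes with the highest NNC share whose most-read NNC model had 1 exon fewer than the annotated model.
CYB5A exon 3 of 5, chr18:74260915-74260944, minus strand: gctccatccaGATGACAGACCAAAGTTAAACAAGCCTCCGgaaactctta
SFT2D1 exon 7 of 8, chr6:166322857-166322886, minus strand: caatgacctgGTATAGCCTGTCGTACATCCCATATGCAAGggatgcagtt
SNRPG exon 2 of 4, chr2:70289350-70289372, minus strand: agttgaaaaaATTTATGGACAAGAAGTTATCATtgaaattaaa
RPL41 exon 2 of 3, chr12:56117189-56117211, plus strand: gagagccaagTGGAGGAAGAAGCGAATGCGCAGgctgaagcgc
HLA-DRB1 exon 5 of 6, chr6:32580247-32580270, minus strand: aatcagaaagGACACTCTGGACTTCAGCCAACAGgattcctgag
BSG exon 6 of 8, chr19:582306-582330, plus strand: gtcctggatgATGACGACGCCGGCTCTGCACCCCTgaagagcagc
GPX4 exon 5 of 7, chr19:1106242-1106266, plus strand: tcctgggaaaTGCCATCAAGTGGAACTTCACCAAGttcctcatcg
PPIH exon 3 of 10, chr1:42659228-42659251, plus strand: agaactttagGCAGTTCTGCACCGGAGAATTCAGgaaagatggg
SNRPE exon 2 of 5, chr1:203862196-203862222, plus strand: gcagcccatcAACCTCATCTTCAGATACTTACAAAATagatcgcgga
ATP5MPL exon 3 of 4, chr14:103913961-103913984, minus strand: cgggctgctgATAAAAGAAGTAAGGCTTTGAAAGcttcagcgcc
CDC123 exon 10 of 13, chr10:12238457-12238485, plus strand: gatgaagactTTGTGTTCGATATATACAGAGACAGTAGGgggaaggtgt
DESI1 exon 2 of 6, chr22:41607840-41607861, minus strand: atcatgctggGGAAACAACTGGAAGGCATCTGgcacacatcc
Another 4 are shown as a contrast, because the most-read NNC model of these genes had as many exons as the annotated model.
UBE2C exon 2 of 6, chr20:45813437-45813464, plus strand: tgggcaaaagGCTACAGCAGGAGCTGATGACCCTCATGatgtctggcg
UQCRH exon 2 of 4, chr1:46309101-46309127, plus strand: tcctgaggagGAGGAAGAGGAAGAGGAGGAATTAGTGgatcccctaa
HMGN2 exon 3 of 6, chr1:26473703-26473732, plus strand: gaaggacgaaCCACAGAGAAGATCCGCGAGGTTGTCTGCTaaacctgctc
ANXA6 exon 21 of 26, chr5:151110627-151110644, minus strand: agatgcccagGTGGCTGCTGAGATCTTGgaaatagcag
All 16 exons are coding over their whole length.

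Most NNC models were read a single time. Of the 54981 models with reads, 46874 (85.3%) had 1 read, and these held 39.8% of the NNC reads. The share of models read once was lower in the other classes, at 71.4% of NIC models, 57.3% of incomplete splice matches and 33.1% of known models. At the other end, 190 NNC models (0.346%) had 50 or more reads and held 25.4% of the NNC reads. An NNC model had 2.14 reads on average, against 4.31 for NIC and 39.1 for known models.

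A small set of NNC models recurred in all libraries. The 324 models read in all 8 libraries (0.589% of those with reads) held 25.6% of the NNC reads, and the 47673 models read in 1 library held 41.3%. By cell line, 1884 models were read in all 3 lines and held 39.0% of the reads, 3350 were read in 2 lines and held 10.4%, and 49747 were read in 1 line and held 50.6%. The models of 1 line were 11317 in K562, 22881 in HepG2 and 15549 in GM12878, and HepG2 was also the line with the most reads. These are counts at the depth of each library, and models are not replicates.

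Recurrence followed read number in every class. Among models with 2 reads, 80.5% of NNC models had them in 2 libraries, against 76.7% of NIC and 74.3% of known models. Among models with 20 to 49 reads, 81.2% of NNC models were read in all 3 lines, against 79.3% of NIC, 73.3% of incomplete splice match and 80.8% of known models. Of the NNC models with 50 or more reads, 75.8% were read in all 8 libraries, against 77.6% of known models with that many. Any 2 libraries of the same line shared 11.9% to 23.7% of the NNC models of either, which held 35.1% to 53.7% of its NNC reads. For libraries of different lines these shares were 8.07% to 21.3% and 27.8% to 47.6%.

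**Figure D1:**
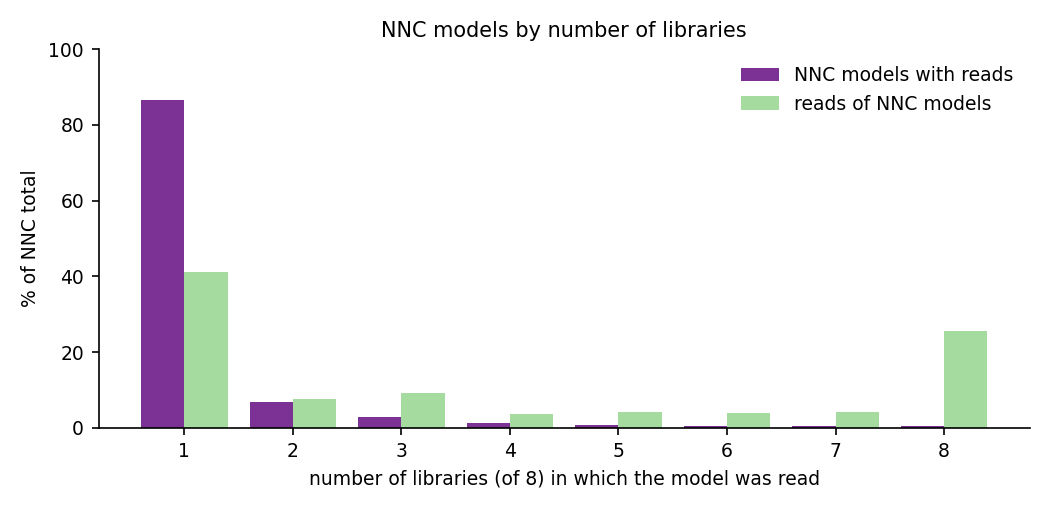
Share of the 54981 NNC models with reads (purple bars) and of their 117816 reads (green bars), in percent, by the number of libraries in which a model was read. Models of 1 library are 86.7% of the models and 41.3% of the reads, and models of 8 libraries are 0.589% of the models and 25.6% of the reads.

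The NNC share of the reads was highest in GM12878 and lowest in HepG2. It was 6.81% and 6.13% in the K562 libraries, 5.12%, 5.94% and 5.08% in the HepG2 libraries and 7.84%, 7.997% and 9.80% in the GM12878 libraries. No GM12878 library overlapped with a library of another line, and both K562 libraries lay above all HepG2 libraries. The counting interval (Wilson, 95%) of the highest library was 9.58% to 10.02% and that of the lowest 5.01% to 5.15%, and the intervals cover counting error only. Means were 6.47% ± 0.485 in K562 (SD, n = 2), 5.38% ± 0.485 in HepG2 (n = 3) and 8.55% ± 1.09 in GM12878 (n = 3). The 3 lines differed by an exact permutation test over the 560 assignments of libraries to lines (two-sided, p = 0.00714, adjusted p = 0.0187 by Benjamini-Hochberg over 7 such tests of NNC measures).

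Between pairs of lines, the difference was -3.17 percentage points for HepG2 minus GM12878 (exact permutation p = 0.1), -2.07 for K562 minus GM12878 (exact permutation p = 0.1) and 1.09 for K562 minus HepG2 (exact permutation p = 0.2), where 0.1 is the smallest p these group sizes allow. In each line the library with the fewest reads had the highest NNC share, and the part of depth in the difference between lines was not tested. The share of NIC reads did not follow this order, with 17.7% ± 0.0768 in K562 (n = 2), 17.1% ± 0.186 in HepG2 (n = 3) and 17.2% ± 0.524 in GM12878 (n = 3).

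**Figure D2:**
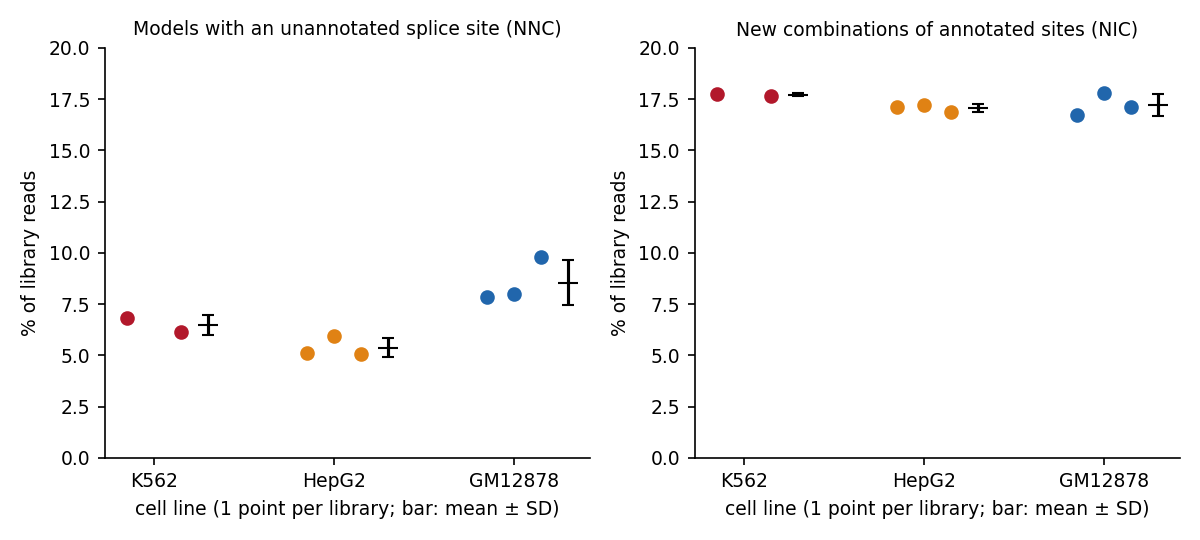
Share of library reads, in percent, held by NNC models (left) and by NIC models (right), with 1 point per library and the mean ± SD of each line beside the points. The 3 GM12878 libraries lie at 7.84% to 9.80% NNC, above the K562 libraries at 6.13% and 6.81% and the HepG2 libraries at 5.08% to 5.94%, while NIC lies at 16.7% to 17.8% in all 8 libraries.

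The order of the lines was the same with the same genes in every library. Over 466 genes that had 20 reads or more in each of the 8 libraries, each with the same weight, the NNC share was 6.31% ± 0.722 in K562 (n = 2), 5.31% ± 0.611 in HepG2 (n = 3) and 7.61% ± 0.965 in GM12878 (n = 3). Thinned to 70374 reads, the libraries were expected to show 3119 ± 284 NNC models in K562 (n = 2), 2685 ± 303 in HepG2 (n = 3) and 4459 ± 663 in GM12878 (n = 3), with an exact permutation p of 0.0107 and an adjusted p of 0.0187. Without K562 replicate 1 that p was 0.0571. Models read once over the 8 libraries made up 37.6% ± 0.348 of the NNC reads in K562 (n = 2), 38.4% ± 3.71 in HepG2 (n = 3) and 45.6% ± 2.11 in GM12878 (n = 3). With only NNC models of 2 or more reads, the share was 4.04% ± 0.280 in K562 (n = 2), 3.31% ± 0.216 in HepG2 (n = 3) and 4.64% ± 0.429 in GM12878 (n = 3).

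NNC reads had more exons than reads of spliced known transcripts. Per library, the mean exon number of an NNC read was 7.36 to 7.41 in K562, 7.39 to 7.47 in HepG2 and 7.87 to 8.33 in GM12878, and that of a spliced known read was 5.35 to 5.70 over all 8 libraries. The difference averaged 2.14 ± 0.301 exons (SD, n = 8) and was above 0 in 8 of 8 libraries, with an exact sign-flip permutation p of 0.00781, the smallest that 8 libraries allow, and an adjusted p of 0.00879 over 9 such tests. Against NIC reads the difference was 1.26 ± 0.349 exons (n = 8), with the same exact permutation p. Weighted to the same genes, the difference was 0.0494 ± 0.131 exons (n = 8, above 0 in 5 of 8 libraries), and it did not pass the test (exact permutation p = 0.312).

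In length, NNC reads were assigned to models of 1283 to 1301 bases on average in K562, 1326 to 1361 in HepG2 and 1396 to 1491 in GM12878. The difference to spliced known models was -211 ± 60.6 bases (n = 8, below 0 in 8 of 8 libraries, exact permutation p = 0.00781), and that to NIC models was 199 ± 55.7 bases (above 0 in 8 of 8, exact permutation p = 0.00781). Weighted to the same genes, the difference to known models was -647 ± 55.9 bases (below 0 in 8 of 8 libraries, exact permutation p = 0.00781). A known model carries its annotated length whatever part of it a read covers.

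With reads binned by the exon number of their own model, the NNC share was higher the more exons a model had. Among reads of models with 2 exons, NNC models held 4.29% ± 0.0229 in K562 (n = 2), 2.87% ± 0.327 in HepG2 (n = 3) and 5.14% ± 0.251 in GM12878 (n = 3). With 6 to 8 exons the shares were 8.64% ± 1.36, 8.03% ± 0.678 and 10.8% ± 1.502 in the same order of lines. With 21 exons or more they reached 25.1% ± 0.714 in K562, 21.6% ± 3.90 in HepG2 and 41.6% ± 7.40 in GM12878, where GM12878 replicate 3 stood at 49.8%. By exon number, 4.16% of the NNC reads had 2 exons and 2.71% had 21 or more, against 6.76% and 0.299% of spliced known reads.

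**Figure D3:**
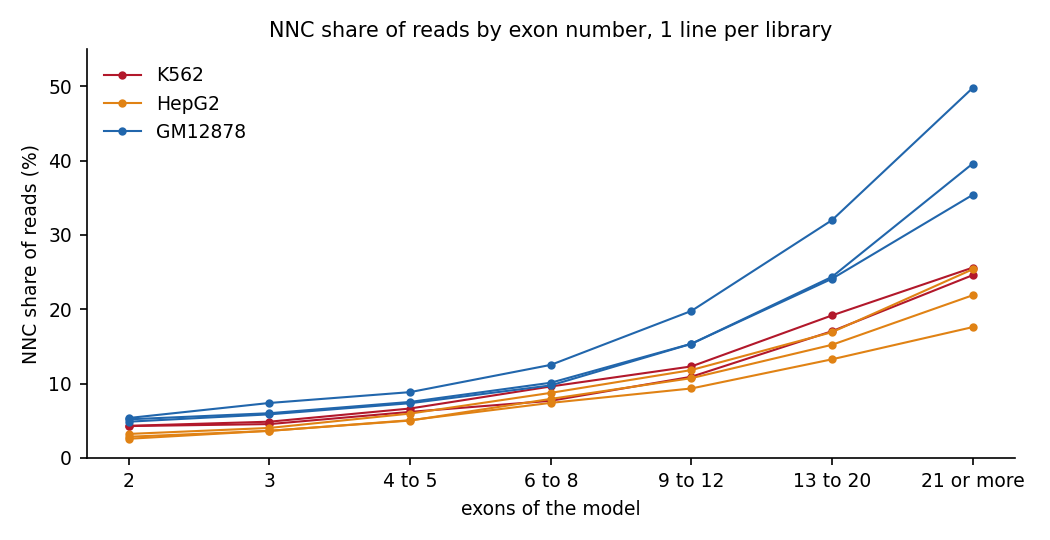
NNC share of the reads of all models with a given exon number, in percent, with 1 line per library coloured by cell line. The share is lowest at 2 exons (2.57% to 5.36%) and highest at 21 exons or more (17.6% to 49.8%), and the 3 GM12878 libraries lie above all other libraries in each bin.

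NNC reads lay almost wholly in annotated genes. Of the NNC reads, 99.3% fell in 10851 annotated genes, 560 reads in 273 intergenic and 250 in 144 antisense genes that TALON added. The reads were spread widely: the 20 genes with most NNC reads held 13.6%, and it took 506 genes to reach 50%. Of those 20 genes, 11 encode ribosomal proteins. Genes with near-identical copies, ribosomal protein genes with their processed pseudogenes above all, could share reads with those copies at alignment, so their values are less certain.

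RPS20, a protein of the small ribosomal subunit, had the most NNC reads, 2068 of its 5329 reads (38.8%). Its NNC share was 33.9% and 41.6% in K562, 36.4%, 38.3% and 38.1% in HepG2 and 39.95%, 42.1% and 39.1% in GM12878. The K562 libraries overlapped with both other lines, the HepG2 libraries lay below the GM12878 libraries, and 1 model of 4 exons and 523 bases, against 4 exons and 626 bases in the most-read known transcript, held 97.4% of these NNC reads. RPL23A, of the large subunit, had 1235 NNC reads of 3743 (33.0%), at 31.8% and 34.8% in K562, 29.4%, 40.7% and 28.7% in HepG2 and 36.9%, 35.1% and 34.5% in GM12878. These lines overlapped too, and 1 model of 5 exons held 98.2% of the NNC reads.

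RPLP2, an acidic protein of the ribosomal stalk, had 1706 NNC reads (17.7% of its reads), with means of 17.2% ± 1.12 in K562 (n = 2), 17.0% ± 0.959 in HepG2 (n = 3) and 18.9% ± 2.33 in GM12878 (n = 3). RPL37 had 1095 NNC reads (16.3%), and RPS6, the small subunit protein phosphorylated by S6 kinases, had 995 (15.9%). In RPL37 and in RPS23 (730 NNC reads, 9.67%) the NNC reads lay mainly in a model of 3 exons, with 1031 and 676 reads, where the most-read known transcript has 4 exons. Among ribosomal proteins with lower shares, RPSA had 522 NNC reads (13.7%), RPS2 691 (5.92%), RPS18 516 (6.11%), RPL8 477 (8.16%) and RPL31 394 (8.16%).

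Of the other genes with most NNC reads, BTF3, the beta subunit of the complex that binds nascent peptides at the ribosome, stood out by its share. NNC models held 982 of its 1682 reads (58.4%), at 56.0% and 67.8% in K562, 62.7%, 54.7% and 48.8% in HepG2 and 60.4%, 57.3% and 47.7% in GM12878. A single NNC model of 6 exons and 876 bases held 948 of them, while the most-read known transcript, of 6 exons and 897 bases, had 1 read. GPX4, a selenoprotein that reduces lipid hydroperoxides, had 526 NNC reads (31.3%). EEF1A1, which brings aminoacyl-tRNA to the ribosome, had 694 but only 3.59% of its 19321 reads, and TPT1 had 528 (9.13%) and GAPDH, of glycolysis, 407 (4.26%). The plasma protein genes AHSG (697 NNC reads, 6.97%), SERPINA1 (677, 2.93%), ALB (602, 2.12%) and AFP (501, 3.39%) had all of their NNC reads in HepG2.

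The 20 NNC models with most reads held 10.6% of all NNC reads, and 17 of them were read in all 8 libraries. The other 3, of AHSG, SERPINA1 and ALB, were read only in HepG2. Compared with the most-read known transcript of the gene, 16 of the 20 had the same number of exons, 3 had 1 fewer (RPL37, RPS23 and GPX4) and 1 had 1 more (RPS2), and all 20 were shorter. NDUFB9, a subunit of respiratory complex I, had a 4-exon NNC model with 352 reads (34.5% of the gene) whose length of 710 bases was within 1 base of the known transcript's 711. TOMM7, of the mitochondrial import channel, had 274 reads in a 3-exon model (28.9%), NME2, a nucleoside diphosphate kinase, had 331 reads (12.7%), and FTH1, the ferritin heavy chain, had 320 (3.84%).

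Over the 2933 genes with at least 100 reads the median NNC share was 5.90%, with quartiles at 2.99% and 9.70%. The share was above 20% in 124 genes (4.23%), above 30% in 37, and 145 genes had no NNC read. EXOSC4, a subunit of the RNA exosome, had the highest share, 180 of 193 reads (93.3%), with 24 of 27 and 22 of 22 reads in K562, 56 of 58, 21 of 25 and 32 of 34 in HepG2 and 9 of 11, 10 of 10 and 6 of 6 in GM12878. Its share was at least 81.8% in every library, and a 3-exon model held 174 of these reads, while the most-read known transcript had 7.

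Other genes with high shares differed in how the lines read them. JPT1 had 24 of 30 and 24 of 32 reads NNC in K562, 21 of 30, 17 of 27 and 15 of 22 in HepG2 and 40 of 53, 37 of 54 and 19 of 30 in GM12878, so that the K562 libraries overlapped only with GM12878 replicate 1. COPRS, which binds the methyltransferase PRMT5, had an NNC share of 59.2% of 169 reads, and NUDT5, which cleaves ADP-ribose, had 47.9% of 242 reads. EMID1 was read mainly in GM12878, with 29 of 37, 26 of 43 and 14 of 17 reads NNC there. TRAC, the constant part of the T cell receptor alpha chain, was read in GM12878 alone, with 19 of 40, 30 of 49 and 7 of 15 reads NNC. NUDT8 (44.0% of 159 reads), ZNF511 (42.0% of 112) and COQ4, of coenzyme Q synthesis (41.3% of 109), close the list of the 12 highest together with CYB5A and SFT2D1, whose short exons are shown above. In 7 of the 12 the most-read known transcript had fewer than 10 reads or none.

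**Figure D4:**
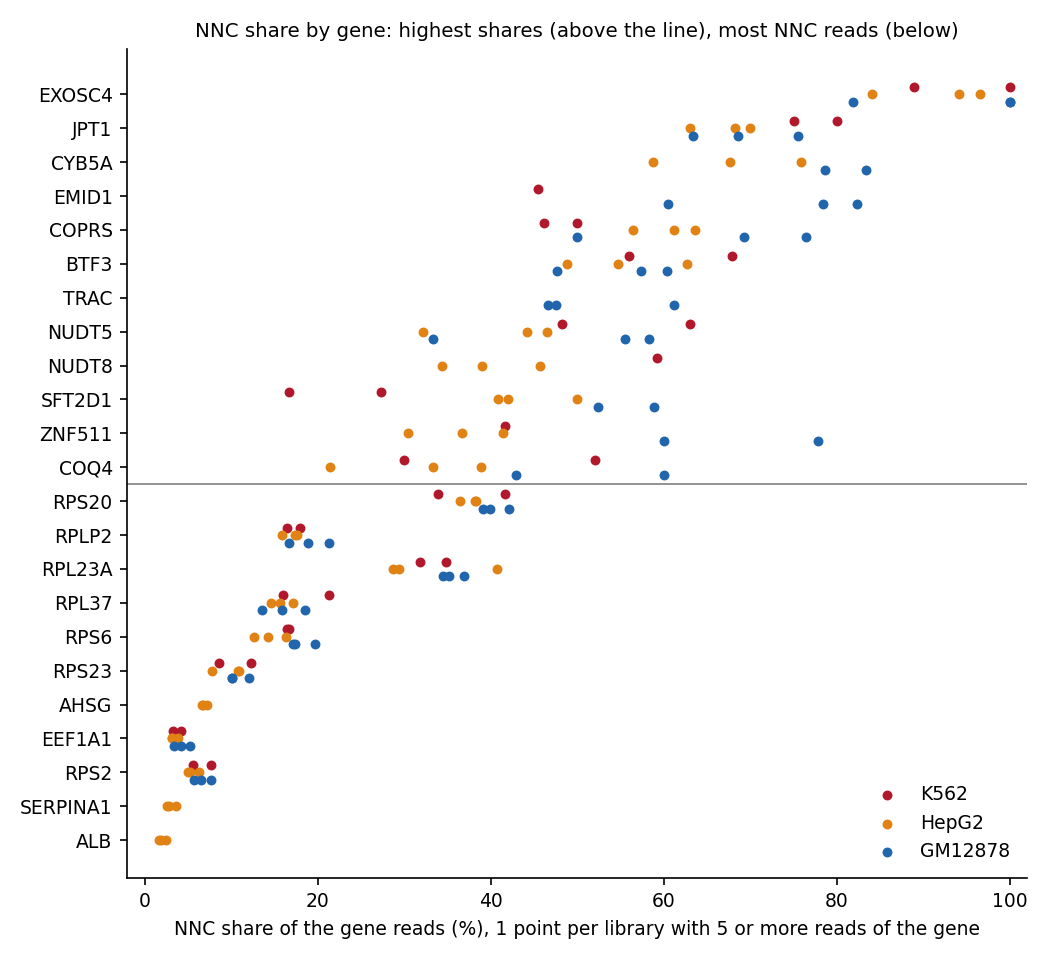
NNC share of the reads of each gene, in percent, with 1 point per library that had at least 5 reads of the gene, coloured by line. Above the grey line are the 12 genes with the highest share among genes with at least 100 reads, below it those with most NNC reads: RPS20 lies at 33.9% to 42.1% in all 8 libraries and EEF1A1 at 3.12% to 5.19%.

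The NNC reads of a gene could lie in 1 model or in many. Over 1061 genes with at least 20 NNC reads, the most-read NNC model held a median of 37.8% of them, over 80% in 84 genes and under 20% in 220. At 1 end, PGP, a phosphoglycolate phosphatase, had all of its 70 NNC reads in 1 model of 2 exons, as had FBXL5 with 22, which senses iron, and POLR2L with 21, a subunit shared by the RNA polymerases. At the other end, every NNC read was a model of its own in 24 genes. These included the collagen gene COL18A1 with 36 NNC reads, BAG6 with 31, DGKZ with 30, the complement gene C4A with 29, and the talin gene TLN1 and UNC13D with 28 each.

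Genes whose annotated transcript contains a very short internal exon had the higher NNC shares. Over 2243 genes with at least 100 reads and a known transcript of at least 3 exons and 10 reads, the median NNC share was 11.2% where the shortest internal exon had at most 30 bases (52 genes), 8.74% at 31 to 40 bases (146 genes), 7.20% at 41 to 60 (544), 5.91% at 61 to 100 (955) and 4.15% above 100 (546). Summed over the genes of at most 30 bases, the share was 17.6% and 14.9% in K562, 16.5%, 16.6% and 14.5% in HepG2 and 19.6%, 19.9% and 23.5% in GM12878. Summed over the genes above 100 bases, it was 4.29% ± 0.171 in K562 (n = 2), 3.98% ± 0.367 in HepG2 (n = 3) and 5.66% ± 0.617 in GM12878 (n = 3), and no library of the 1 group of genes overlapped with any of the other. This split of the genes was chosen after the values were seen, so these are descriptions with no test. With the APPRIS principal transcript in place of the most-read known one, an alternative chosen after seeing the data, 125 genes had such an exon, and their summed share was 13.7% ± 1.45 in K562 (n = 2), 8.81% ± 0.642 in HepG2 (n = 3) and 19.3% ± 2.84 in GM12878 (n = 3). Within genes of 3 to 6 exons the medians at the 2 ends were 14.02% and 3.79%, within 7 to 10 exons 12.8% and 5.41%, and above 10 exons 9.05% and 6.56%.

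In these genes most NNC reads were of models with 1 exon fewer than the known transcript. Of the NNC reads in genes with an internal exon of at most 30 bases, 70.3% were assigned to models with 1 exon fewer than the known transcript and 15.5% to models with the same number. Above 100 bases, 11.7% had 1 exon fewer and 72.9% the same number. The share with 1 exon fewer in the genes of at most 30 bases was 65.0% in K562, 72.1% in HepG2 and 71.5% in GM12878. Over all 2243 genes, 63.5% of the NNC reads had the same number of exons as the known transcript, 17.6% had 1 fewer and 6.65% had 1 more. Whether the bases of the short exon are present in these NNC models was not analysed here, since the tables give no intron ends.

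**Figure D5:**
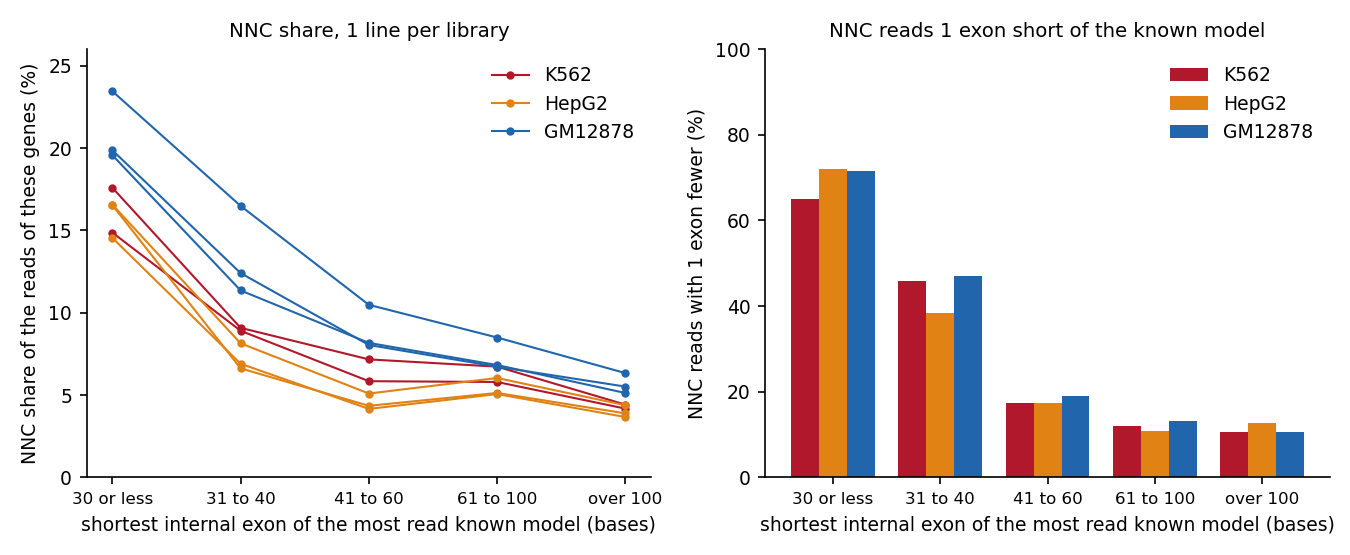
Genes binned by the shortest internal exon of their most-read known transcript, in bases. On the left, the NNC share of their reads in percent, 1 line per library, is 14.5% to 23.5% at 30 bases or less and 3.66% to 6.33% above 100. It does not fall at every step: HepG2 replicates 1, 2 and 3 stand at 4.34%, 5.09% and 4.16% at 41 to 60 bases. At 61 to 100 bases they stand higher, at 5.12%, 6.03% and 5.06%. On the right, the percent of NNC reads with 1 exon fewer than that transcript, by line, falls from 65.0% to 72.1% to values under 13%.

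The genes whose exons are shown differed in how often the NNC model was read. SNRPG, an Sm protein of the spliceosomal ribonucleoproteins, has an exon of 23 bases, and its 3-exon NNC model had 15 and 21 reads in K562, 27, 9 and 10 in HepG2 and 14, 10 and 7 in GM12878. The 4-exon known transcript had 10 and 12, 19, 9 and 10, and 9, 14 and 6 reads in the same libraries. The NNC model thus made up 61.8% ± 2.57 of the pair in K562 (n = 2), 52.9% ± 5.02 in HepG2 (n = 3) and 52.1% ± 9.72 in GM12878 (n = 3). SNRPE, another Sm protein, with an exon of 27 bases, had 73 reads in the 4-exon NNC model and 126 in the 5-exon known transcript, and PPIH, a cyclophilin of the U4/U6.U5 particle, had 30 and 43.

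GPX4 and BSG have exons of 25 bases. In GPX4 the 6-exon NNC model had 482 reads and the 7-exon known transcript 41, so that the NNC model made up 94.3% ± 8.08 of the pair in K562 (n = 2), 91.8% ± 3.83 in HepG2 (n = 3) and 90.7% ± 4.87 in GM12878 (n = 3). In BSG, which encodes the membrane protein basigin, the 7-exon NNC model had 189 reads at a length of 1617 bases and the 8-exon known transcript had 171 reads at 1616 bases. Both forms of BSG were read in all 8 libraries, with 15 and 40 NNC reads in K562, 54, 24 and 33 in HepG2 and 8, 11 and 4 in GM12878. RPL41, a very short ribosomal protein, had 132 reads of a 2-exon NNC model and 98 of the 3-exon known transcript, and the NNC part was 58.6% ± 6.48 in K562 (n = 2), 50.9% ± 21.2 in HepG2 (n = 3) and 71.6% ± 7.04 in GM12878 (n = 3).

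CYB5A, cytochrome b5, and SFT2D1, of vesicle transport, have exons of 30 bases and are among the 12 genes with the highest NNC share, at 70.6% of 272 reads and 43.5% of 186 reads. HLA-DRB1, a chain of an MHC class II molecule, was read in GM12878 only, and its 5-exon NNC model had 73, 92 and 38 reads there while the 6-exon known transcript had 74, 68 and 29. ATP5MPL, of the ATP synthase, had 41 reads against 162, CDC123 had 33 against 13, and DESI1 had 16 against 23 for the NNC model against the known transcript. Over the 26 genes whose most-read NNC model had 1 exon fewer, out of 35 genes with such an exon and at least 20 NNC reads, the NNC model was read more often than the known transcript in 9, and its part of the pair ran from 5.19% to 92.2% with a median of 41.1%. It was read in all 3 lines in 17 of the 26.

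The short exons of these 26 genes had 20 to 30 bases (median 25), and 13 of the 27 such exons were a multiple of 3 in length. In the 9 genes whose leading NNC model did not have 1 exon fewer, 6 of 9 short exons were a multiple of 3, with a median of 27 bases. The GC content of the exons had a median of 46.4% in the 26 genes and 55.6% in the other 9. In UQCRH, of respiratory complex III, the leading NNC model had 4 exons as has the known transcript, with 141 reads against 721. UBE2C, a ubiquitin-conjugating enzyme of mitosis, had 11 reads of the NNC model against 54 of the known transcript. HMGN2, a nucleosome-binding protein, had 47 against 326 reads, and ANXA6, an annexin whose exon of 18 bases was the shortest here, had 3 against 25.

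The gene lists, chosen with earlier results of these data known, differed in NNC share. Proteasome subunits had 9.47% of 14285 reads in NNC models, respiratory chain and ATP synthase subunits 7.003% of 42913 reads, and MHC genes 10.4% of 10743. Translation factors had 4.08%, actin and tubulin cytoskeleton genes 3.55%, hepatocyte secreted proteins 3.03% and globins 0.821% of 15590 reads. Ribosomal proteins had 5.36% for the small subunit, where RPS20 alone was above 20%, and 4.64% for the large subunit, where 2 of 47 genes were. Immunoglobulin genes had 13.7% of 2027 reads, all in GM12878, chaperones 4.77%, splicing factors and hnRNP proteins 5.13%, glycolysis genes 5.43% and noncoding host genes 6.35%. The median member with at least 100 reads stood at 9.39% among proteasome subunits, 5.62% among respiratory chain subunits, 3.01% and 2.95% among small and large ribosomal subunit proteins and 4.79% among splicing factors, beside 5.90% over all 2933 genes of that depth. Among MHC genes the median of the 16 such members was 6.24%, with HLA-DRB1 at 31.9% and HLA-C at 20.3%. Within other lists, PSMB7, a proteasome subunit, had 21.6%, NDUFA13, of complex I, 21.4%, and the chaperonin subunit CCT8 25.04%.

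In 10 of the 11 lists with at least 100 reads in each line, the mean NNC share was highest in GM12878, and in proteasome subunits it was highest in K562. Proteasome subunits had 11.5% ± 1.85 in K562 (n = 2), 8.45% ± 1.11 in HepG2 (n = 3) and 10.9% ± 2.45 in GM12878 (n = 3). Glycolysis genes had 5.24% ± 0.934 in K562, 4.66% ± 0.584 in HepG2 and 7.25% ± 0.353 in GM12878, where PKM, pyruvate kinase, had 13.98% of its 2046 reads in NNC models. Splicing factors and hnRNP proteins had 5.12% ± 1.42 in K562, 3.87% ± 0.650 in HepG2 and 7.72% ± 1.69 in GM12878, with HNRNPL at 12.9% and HNRNPDL at 13.04%. Small nucleolar RNA host genes and other polyadenylated noncoding RNAs had 6.89% ± 1.20, 5.54% ± 0.732 and 7.51% ± 1.09 in the same order, with SNHG6 at 21.2%. No list held a gene whose NNC share was called different between lines.

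Gene by gene, few differences in NNC share between lines passed the test. For each of the 3 comparisons, 10764 gene-class shares were tested, 1792 of them NNC, with edgeR (diffSpliceDGE), and called at an adjusted p under 0.05 (Benjamini-Hochberg over all 10764) where the share also shifted by 10 percentage points or more. Between HepG2 and GM12878, 3 NNC shares were called, all lower in HepG2, which is 0.167% of the NNC shares beside 0.121% of all shares lower and 0.0372% higher (0.158% in either direction). For K562 against GM12878 and for K562 against HepG2 no NNC share was called, beside 0.0557% of all shares called in the K562 against GM12878 comparison (0.0465% lower and 0.00929% higher in K562) and 0.00929% in the K562 against HepG2 comparison. DESeq2 called 2, 0 and 0 NNC shares. At an unadjusted p under 0.05 there were 235 NNC shares between HepG2 and GM12878, of which 230 were lower in HepG2, 140 between K562 and GM12878, of which 135 were lower in K562, and 57 between K562 and HepG2, of which 43 were higher in K562. Those unadjusted counts are of 1792 NNC shares per comparison, have no count over all 10764 shares beside them and are not calls. The median shift was -4.80, -3.59 and 0.67 percentage points in these comparisons, and that of NIC shares was 0.48, 0.94 and 0.50. HepG2 and GM12878 each enter 2 of the comparisons.

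BAG6, a chaperone for membrane proteins in transit, had 2 of 161, 5 of 88 and 3 of 134 reads NNC in HepG2 and 9 of 40, 5 of 30 and 5 of 13 in GM12878. Its share was 3.05% ± 2.33 in HepG2 and 25.9% ± 11.3 in GM12878 (n = 3 each), with no overlap and an adjusted p of 0.00235 (edgeR). In K562, BAG6 was low too, with 1 of 30 and 1 of 84 reads NNC. Each of its 31 NNC reads was a model of its own. BCAP31, of the endoplasmic reticulum, had 6.47%, 3.37% and 3.90% in HepG2, against 29.2%, 22.5% and 33.3% in GM12878 (edgeR adjusted p = 0.0153). In GM12878 a single 8-exon model made up 24.8% ± 6.37 of the BCAP31 reads, against 2.35% ± 3.02 in HepG2 (n = 3 each). ARAP1, which regulates small GTPases, had 5 of 96 reads NNC in HepG2 and 14 of 30 in GM12878 (edgeR adjusted p = 0.0362). GM12878 replicate 3 had 2 ARAP1 reads in all. The 25 NNC reads of ARAP1 over the 8 libraries were of 25 models, each read once. The ARAP1 call was lost in 10 of 16 alternatives, with an adjusted p of 0.0524 by DESeq2, 0.0688 with features of 1 read or more, 0.0641 with models of 2 or more exons, 0.0984 with the replicate block and 0.0864 to 0.295 without any 1 of the HepG2 or GM12878 libraries. The BAG6 call was lost without HepG2 replicate 1 (edgeR adjusted p = 0.0921), GM12878 replicate 1 (0.118) or GM12878 replicate 3 (0.0575). The BCAP31 call was lost without HepG2 replicate 2 or 3 or any 1 of the GM12878 libraries (edgeR adjusted p = 0.0567 to 0.13).

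The count of 3 moved with single libraries. It was 8 without K562 replicate 1 and 9 without K562 replicate 2, and 1 without HepG2 replicate 1, HepG2 replicate 2, GM12878 replicate 2 or GM12878 replicate 3. Without GM12878 replicate 1 edgeR called 0, with 184 of 1482 NNC shares tested at an unadjusted p under 0.05. The number of NNC shares tested also moved with the library left out, from 1204 to 1640, beside 1792 in the main setting. The counts are therefore not of the same set of shares.

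Few NNC models were abundant enough to test on their own. Of 3883 models that passed the filter on low counts, 185 were NNC, from 146 genes and with 24.9% of the NNC reads. The reads of 1 line alone could carry a model past that filter, so these are not a sample of all NNC models. Called at an adjusted p under 0.05 (edgeR, glmQLFTest) and a log2 change of at least 1, 38 were higher and 48 lower in HepG2 against GM12878, or 20.5% and 25.9% of the NNC models beside 31.7% and 19.2% of all models (46.5% beside 50.8% in either direction). Which direction held more calls turned with the setting: 86 were higher and 37 lower with no filter, 31 and 26 with only these lines fitted, 48 and 42 without GM12878 replicate 1, 48 and 39 without GM12878 replicate 3, 33 and 31 without HepG2 replicate 3, 63 and 62 without K562 replicate 1, and 36 each by DESeq2. For K562 against GM12878, 5 were higher and 26 lower in K562, or 2.7% and 14.1% beside 9.35% and 11.4% of all models (16.8% beside 20.8% in either direction). For K562 against HepG2, 22 were higher and 45 lower in K562, or 11.9% and 24.3% beside 14.1% and 29.7% of all models (36.2% beside 43.8% in either direction). The median log2 change over the NNC models tested was -0.17, 0.00 and 0.02, and that over all models 0.17, 0.00 and -0.21. Without HepG2 replicate 1 the counts were 57 for HepG2 against GM12878 and 44 for K562 against HepG2, without HepG2 replicate 2 there were 42 for K562 against HepG2, and without K562 replicate 1 there were 56 for K562 against GM12878.

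Among the NNC models higher in HepG2 than in GM12878, AHSG, which encodes the plasma glycoprotein fetuin-A, had a 7-exon NNC model with 177, 80 and 73 reads in HepG2 and 0 in the 5 other libraries. At a floor of 3 counts over a line, which is 7.53 CPM (counts scaled to a common library total) in GM12878, this is at least 41.5-fold higher in HepG2 than in GM12878. No p is given for models read in 1 line only, since the reads of that line took them past the filter. For the same reason no p is given below for HIST1H2BK, PRDX6, SDF2L1 and CCT8, which had few reads in the line where they were lower. SERPINA1, alpha-1-antitrypsin, had a 5-exon NNC model with 133, 66 and 88 reads in HepG2 and 0 elsewhere, at least 36.1-fold higher in HepG2 than in GM12878. Similar bounds held against GM12878 for ALB (15 exons, at least 35.9-fold), the retinol carrier RBP4 (6 exons, at least 31.2-fold) and SERPINF1 (8 exons, at least 23.1-fold). DHRS2, a short-chain dehydrogenase, had 115, 57 and 93 reads of a 9-exon NNC model in HepG2 and 1, 0 and 0 in GM12878. Against K562, PGC, the pepsinogen gene progastricsin, had 61, 44 and 53 reads of a 9-exon NNC model in HepG2 and 0 in K562.

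Among the NNC models lower in HepG2 or K562 than in GM12878, the 5-exon HLA-DRB1 model described above had 0 reads in HepG2 and K562, at least 179-fold lower in HepG2 and at least 77.5-fold lower in K562 than in GM12878. IGLC2, a constant part of the immunoglobulin lambda chain, had 26, 65 and 12 reads of a 4-exon NNC model in GM12878 and 0 in the other lines. The most-read known transcript of IGLC2 has 1 exon, and so no annotated intron. HLA-C, of MHC class I, had 0 reads of its 6-exon NNC model in K562 and 16, 36 and 6 in GM12878. HLA and immunoglobulin genes have close relatives in the genome, so their read assignments are less certain. TMSB4X, which binds actin monomers, had 0 reads of a 3-exon NNC model in HepG2 and 13, 24 and 11 in GM12878. A 5-exon NNC model of ACTB, beta-actin, had 0 and 2 reads in K562, 1, 0 and 2 in HepG2 and 13, 39 and 17 in GM12878.

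HIST1H2BK, a histone gene, had a 2-exon NNC model with 28 and 40 reads in K562, 2, 1 and 2 in HepG2 and 39, 56 and 14 in GM12878, where the most-read known transcript has 1 exon. Its CPM averaged 247 ± 47.5 in K562 (n = 2), 9.82 ± 1.97 in HepG2 (n = 3) and 393 ± 95.5 in GM12878 (n = 3). The log2 changes were -5.23 for HepG2 minus GM12878 and 4.50 for K562 minus HepG2. CPM of these models were computed over the tested models with TMM scaling.

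NNC models that were higher in K562 than in GM12878 were of genes read in all lines. NME4, a mitochondrial nucleoside diphosphate kinase, had 10 and 23 reads of a 5-exon NNC model in K562 and 0, 1 and 0 in GM12878. The antioxidant enzyme PRDX6 had 11 and 22 in K562 and 1, 2 and 2 in GM12878 (log2 change 2.50). The PRDX6 call was lost without K562 replicate 2. The 3-exon TOMM7 model averaged 379 ± 53.5 CPM in K562 (n = 2) and 172 ± 64.1 in GM12878 (n = 3), a log2 change of 1.22 (edgeR adjusted p = 0.0120). That call was lost without K562 replicate 2 (edgeR adjusted p = 0.098), without GM12878 replicate 1 (0.081) and with no filter (0.05). SDF2L1, of the endoplasmic reticulum, had a 3-exon NNC model with 19 and 20 reads in K562, 2, 3 and 2 in HepG2 and 3, 3 and 2 in GM12878. Its call against GM12878 was lost by DESeq2, with no filter and without K562 replicate 1.

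Against HepG2, the NNC models higher in K562 included the interferon-induced IFITM1, with 12 and 25 reads of a 2-exon model in K562 and 0 in HepG2. VIM, vimentin, had 2 and 29 reads of a 9-exon NNC model in K562 and 0 in HepG2, so that the K562 libraries differed widely. GSTP1, a glutathione transferase, had 3 and 16 in K562 and 0 in HepG2. CCT8 had 12 and 16 reads of a 15-exon NNC model in K562 and 3, 1 and 2 in HepG2, a log2 change of 2.99. These tests are of the level of a model, which moves with the level of its gene, and not of the NNC share of the gene.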

How the data were processed

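Native RNA of 3 human cell lines was read by Oxford Nanopore direct RNA sequencing, per the series' design text, from total RNA, per the labels. The submitters' processing notes name minimap2 and hg38. The authors deposited TALON abundance tables with read counts per transcript model, not normalized, per the file headers. TALON's version and settings are not given in the sources used here. All 35496 known models and 20565 annotated genes matched GENCODE 29, with the same exon number and length for each known model. No per-sample column was left unused.

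Counts were summed by gene and class. All models passing filterByExpr were fitted with TMM in edgeR 4.0.16 (glmQLFit, robust; R 4.3.3), 8 libraries in 1 fit. NNC shares of genes were tested with diffSpliceDGE for genes of 10 reads or more per line and features of 10 or more in all. DESeq2 1.42.0 was an alternative. Permutation tests were exact and two-sided. Procedures were tested on simulated data. Libraries of 1 line differed by more than sampling noise (chi-square over its degrees of freedom 1.23 to 3.04 in 7 pairs), so each counts once. Depth was 70374 to 461497 reads per library.

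Named were the 20 genes and 20 models with most NNC reads, the 12 genes with the highest NNC share among those with 100 reads, up to 6 called genes or models per comparison and direction, up to 3 members per list, the 6 genes at either end of concentration, and the 5 models with most exons and the 5 longest. Members, lists and rules were chosen with earlier results of these data known, and the split by short exons after seeing the values. Of the models this rule takes, 1 is not reported here.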

Additional observations from a re-analysis of the deposited data

Results flagged for a closer look

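The excess of exons in NNC reads over spliced known reads differed between lines by the exact permutation test of that difference over all assignments of libraries to lines (p = 0.0357, adjusted p = 0.0357 over 7 tests). It was 1.97 ± 0.139 exons in K562 (SD, n = 2), 1.93 ± 0.157 in HepG2 (n = 3) and 2.46 ± 0.171 in GM12878 (n = 3). No GM12878 library overlapped with a library of another line. Weighted to the same genes this order was not kept, and GM12878 had the lowest mean. The difference was then 0.0263 ± 0.0896 exons in K562 (n = 2), 0.175 ± 0.0562 in HepG2 (n = 3) and -0.0611 ± 0.0997 in GM12878 (n = 3).

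The difference in length between NNC and spliced known models also differed between lines (exact permutation p = 0.025, adjusted p = 0.0292). It was -195 ± 13.1 bases in K562 (n = 2), -273 ± 35.0 in HepG2 (n = 3) and -159 ± 37.6 in GM12878 (n = 3).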

How the results depend on the processing

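Of the recomputed values of the main results, 209 kept direction and side of the threshold or moved little, 16 moved, 2 no longer passed and 1 turned its sign. Among named genes and models, all called in the main setting, 533 recomputed values stayed past the thresholds and 25 no longer passed. Settings in which a model was not tested are left out of these counts. VIM thus has 9 recomputed values, GSTP1 10 and CCT8 12, where AHSG has 15. The models were named because their libraries did not overlap between the lines, so these counts do not measure how robust the calls are. Within the same genes the exon excess of NNC reads was 0.0494. Against NIC reads, an alternative chosen after seeing the data, the length difference was 199 bases. NNC shares called between HepG2 and GM12878 were 7 of 1102 tested under a stricter filter and 11 of 1463 with only those lines fitted. NNC models called between these lines were 57 with only those lines. The short-exon difference of medians, 7.05 points, was 10.2 within 3 to 6 exons and 2.50 above 10 exons. The causes were not tested. Leaving out each library gave a p for models at equal depth of 0.00952 to 0.0571, 0 to 9 NNC shares called between HepG2 and GM12878, 57 to 125 NNC models called for HepG2 against GM12878, 22 to 56 for K562 against GM12878 and 42 to 86 for K562 against HepG2. Correlations between libraries of different lines were -0.0665 to 0.0711 for shared replicate numbers and -0.104 to 0.104 for different numbers. The values of the 2 K562 libraries mirror each other in sign, so this check cannot show whether libraries of the same number share a batch. The fit with the replicate block called 83, 30 and 64 NNC models and 2, 0 and 0 NNC shares. With that block, the NNC share gave p = 0.0278 by exact permutation. At this depth most NNC models had a single read, so their absence from a library is not shown.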

Other observations

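The NNC models with most exons among those with at least 2 reads came from long messenger RNAs. A 45-exon model of SNRNP200, the helicase that unwinds U4/U6, had 1 read in K562 replicate 2 and 1 in HepG2 replicate 3, and the known transcript has 45 exons as well. A 41-exon model of the complement gene C3 had 6 reads, all in HepG2 replicate 3, and another had 1 read each in HepG2 replicates 1 and 3. A 37-exon model of CPSF1, of the polyadenylation machinery, had 2 reads and a 36-exon model of A2M, a plasma protease inhibitor, had 7. The longest were a DGKQ model of 7218 bases and 22 exons with 2 reads and an ABL1 model of 6911 bases and 11 exons with 3 reads, 1 in K562 and 2 in GM12878.

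Of the NNC reads outside annotated genes, no model had more than 10 reads in intergenic genes or 9 in antisense genes.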
